A study of Mus musculus with 6 samples.

Results

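The genes described here are the 33 that encode the glucose transporters, the enzymes of glycolysis, the lactate enzymes and carriers, the PFKFB enzymes and the enzymes of the pentose phosphate pathway. They were taken by name from a list of pathway genes that was drawn up with earlier results of these data known, although the rule uses no measured value, and all 33 were found among the 55376 genes of the count and FPKM tables. The data came from satellite cells (SCs), the stem cells of skeletal muscle, which were sorted from hindlimb muscles of C57BL/6 mice aged 3 months as CD31-, CD45-, Sca1- and Vcam1+ cells and used without culture (freshly isolated SCs, fiSCs). Cytoplasmic polyadenylation element binding protein 1 (CPEB1) was precipitated from the lysate of 1000000 cells, and the RNA that came down with it was sequenced (RIP-seq). There were 3 groups of 2 libraries each: RNA precipitated with anti-CPEB1 (CPEB1 IP), RNA from a control precipitation with IgG, and input RNA that was not precipitated. No animal was treated or mutated, the cells of all 3 groups were wild type, and the control antibody is the only background that the design measures. The methods describe each pair of precipitates as a separate experiment, but the labels do not name the animals behind a library.

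Glycolysis splits glucose into pyruvate in the cytosol and yields ATP without oxygen. Glucose enters through SLC2A carriers, hexokinase traps it as glucose 6-phosphate, phosphofructokinase commits it to breakdown, and lactate dehydrogenase and the SLC16A carriers handle the lactate that forms from pyruvate. The pentose phosphate pathway branches off at glucose 6-phosphate and makes NADPH and the ribose of nucleotides. Quiescent SCs are known to rely largely on oxidative metabolism and to raise glycolysis when they activate. CPEB1 binds short U-rich elements (CPEs) in the 3′ UTR of mRNAs and changes the length of their poly(A) tail, and with it their translation.

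Counts on genes lay between 3270067 and 3314547 in input, 1284716 and 1359052 in IgG, and 2564323 and 4941653 in CPEB1 IP, so the IgG values carry the largest counting error. The deposited FPKM (fragments per kilobase of gene length, scaled to a library total) divides by a library total of which the counts on genes made up 71.1% and 79.8% in input, 39.5% and 39.1% in IgG, and 69.9% and 69.5% in CPEB1 IP. FPKM was therefore used to compare genes within a library, and CPM normalized by TMM (counts per 1000000, after scaling each library so that most genes have no net difference) to compare libraries. All 8 satellite cell markers had counts in every library. The summed FPKM of 5 erythroid markers was 5.41 and 10.02 in input, 39.8 and 41.3 in IgG, and 64.3 and 82.6 in CPEB1 IP. The 9 myofibre markers summed to 48.9 and 45.2 FPKM in input, 35.3 and 32.1 in IgG, and 63.1 and 76.1 in CPEB1 IP. Of these, Acta1 had 16.4 and 15.1 FPKM in input and 33.5 and 41.8 in CPEB1 IP. Atp2a1 had 16.9 and 15.8 FPKM against 6.9 and 6.03. Myh1, Myh2 and Myh4 were under 1 FPKM in every library. The 5 endothelial markers summed to between 8.92 and 21.2 FPKM and the 5 fibro-adipogenic markers to between 43.2 and 161 FPKM. Tek had 11.6 and 14.3 FPKM in input and 9.89 and 10.9 in CPEB1 IP, while Pecam1, Cdh5, Kdr and Emcn were higher in CPEB1 IP. Most of the fibro-adipogenic sum was Col3a1, with 137 and 145 FPKM in input and 44.7 and 43.2 in CPEB1 IP. Dcn (8.86 and 10.3 against 33.1 and 32.4), Ly6a, Lum and Pdgfra went the other way, and Pdgfra was under 1 FPKM in every library. The 6 immune markers summed to 17.8 and 12.1 FPKM in input, 14.9 and 17.6 in IgG, and 27.6 and 34.3 in CPEB1 IP. Among them, Lyz2 had 5.12 and 5.86 FPKM in input, 5.15 and 8.96 in IgG, and 22.6 and 24.7 in CPEB1 IP. Cd68 had 12.4 and 6.13 FPKM in input against 4.34 and 7.61 in CPEB1 IP. Ptprc was at 0 in an input and a CPEB1 IP library. These marker levels are in FPKM, whose library total differs between groups and most for IgG, so they do not order the groups. The part of such cells in the results was not tested, and fewer cells of a type and less RNA per cell cannot be told apart in bulk RNA.

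Aldoa, Ldha and Pkm stood far above the other members in fiSCs. In input, Aldoa (fructose-bisphosphate aldolase) had 228 and 270 FPKM, Ldha (the lactate dehydrogenase subunit that favours lactate formation) 199 and 250 FPKM, and Pkm (pyruvate kinase) 164 and 163 FPKM. These 3 genes made up 61.2% and 62.7% of the summed FPKM of all 33 members in input, 55.5% and 55.6% in IgG, and 62.2% and 60.3% in CPEB1 IP. By mean FPKM in input they ranked 105, 119 and 175 among all genes, and their order does not exceed the spread of 2 libraries for Aldoa and Ldha. Eno1 and Pgk1 followed, at 50.9 and 48.9 FPKM and at 40.2 and 49.6 FPKM, and their ranges overlap. Taldo1, Slc2a1, Slc16a1, Pgam1 and Tpi1 lay between 22.5 and 34.7 FPKM. At the other end, Slc2a4, Aldoc, Pfkfb1 and Rpia were below 1 FPKM in every input library. Together the members took 0.557% and 0.547% of the counts on genes in input, 0.347% in each IgG library, and 0.514% and 0.536% in CPEB1 IP.

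**Figure D1:**
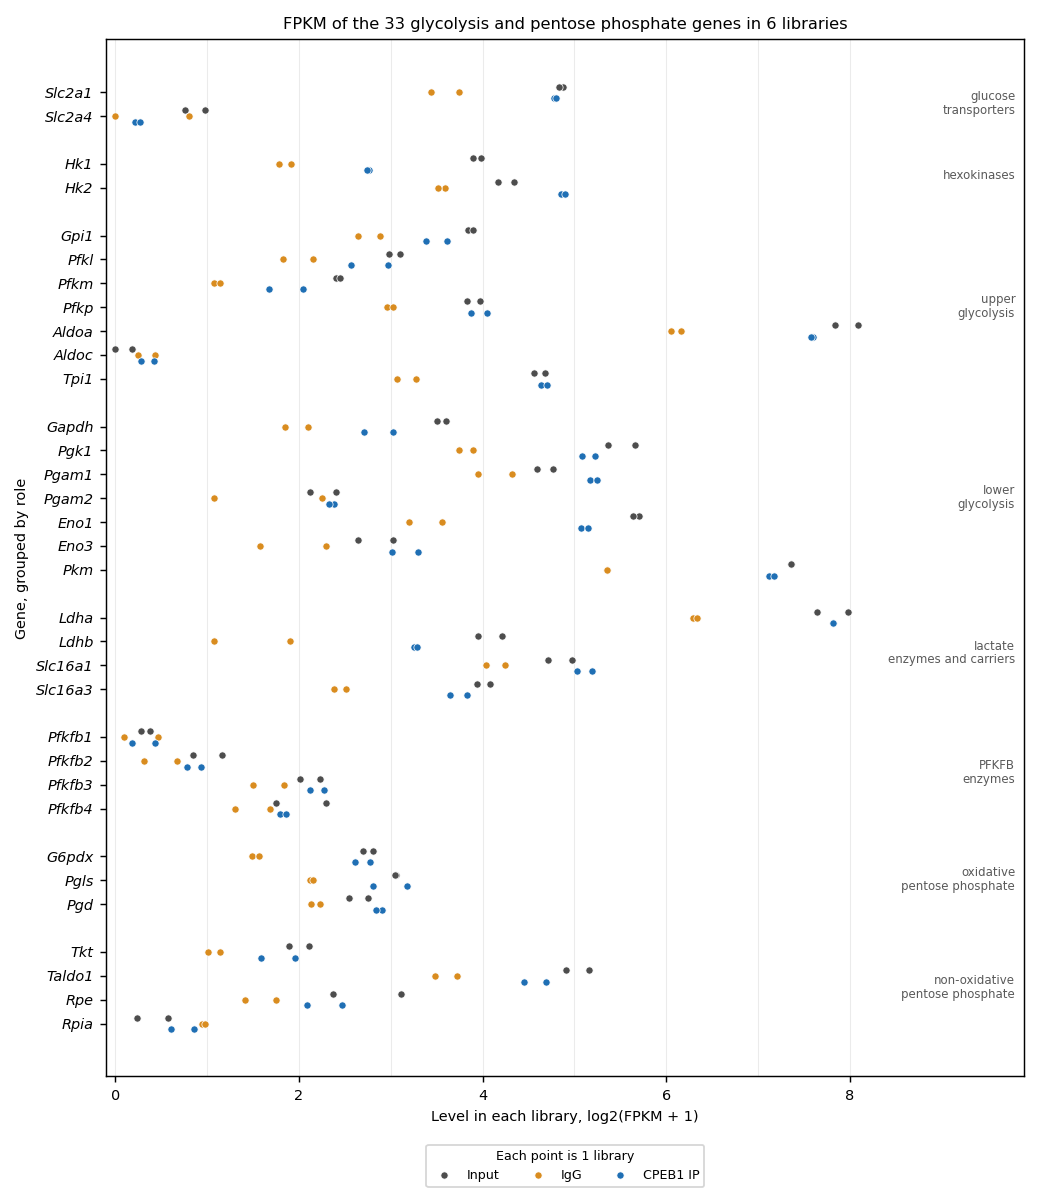
Level of each of the 33 genes, as log2(FPKM + 1) on the horizontal axis, in 2 input (grey), 2 IgG (orange) and 2 CPEB1 IP libraries (blue), with genes grouped by role. Aldoa, Ldha and Pkm lie to the right of all other members in each group, and the IgG points of most members lie to the left, on a scale whose library total differs between groups.

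The comparison of CPEB1 IP with IgG asks which transcripts came down with CPEB1 beyond the control antibody. Of the 33 members, 29 had enough counts to be tested and 10 were higher in CPEB1 IP, namely Slc2a1, Hk2, Aldoa, Tpi1, Pgk1, Eno1, Pkm, Ldha, Ldhb and Slc16a3. This is 34.5% of the members tested, beside 14.7% of the 12124 genes tested. One member, Rpia, was lower (3.45%), beside 18.7% of the genes tested. A call is an adjusted p under 0.05 in edgeR (quasi-likelihood test, Benjamini-Hochberg adjustment over all genes tested), and every adjusted p given for a gene is of this kind unless DESeq2 is named. The median log2 fold change was 0.32 over the 29 members and -0.01 over all genes tested. All 10 higher members belong to the 19 tested members of transport, glycolysis and lactate handling. None of the 7 tested pentose phosphate members was higher (1 at an unadjusted p under 0.05, 0 by DESeq2), and none of the 3 tested PFKFB members was (0 at an unadjusted p under 0.05, 0 by DESeq2). Whether these groups of members differ from each other was not tested. Ldhb and Rpia reached the level that the count filter asks for in both libraries of the group where they were higher and in 1 library of the other group, so they were tested because of their high group.

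**Figure D2:**
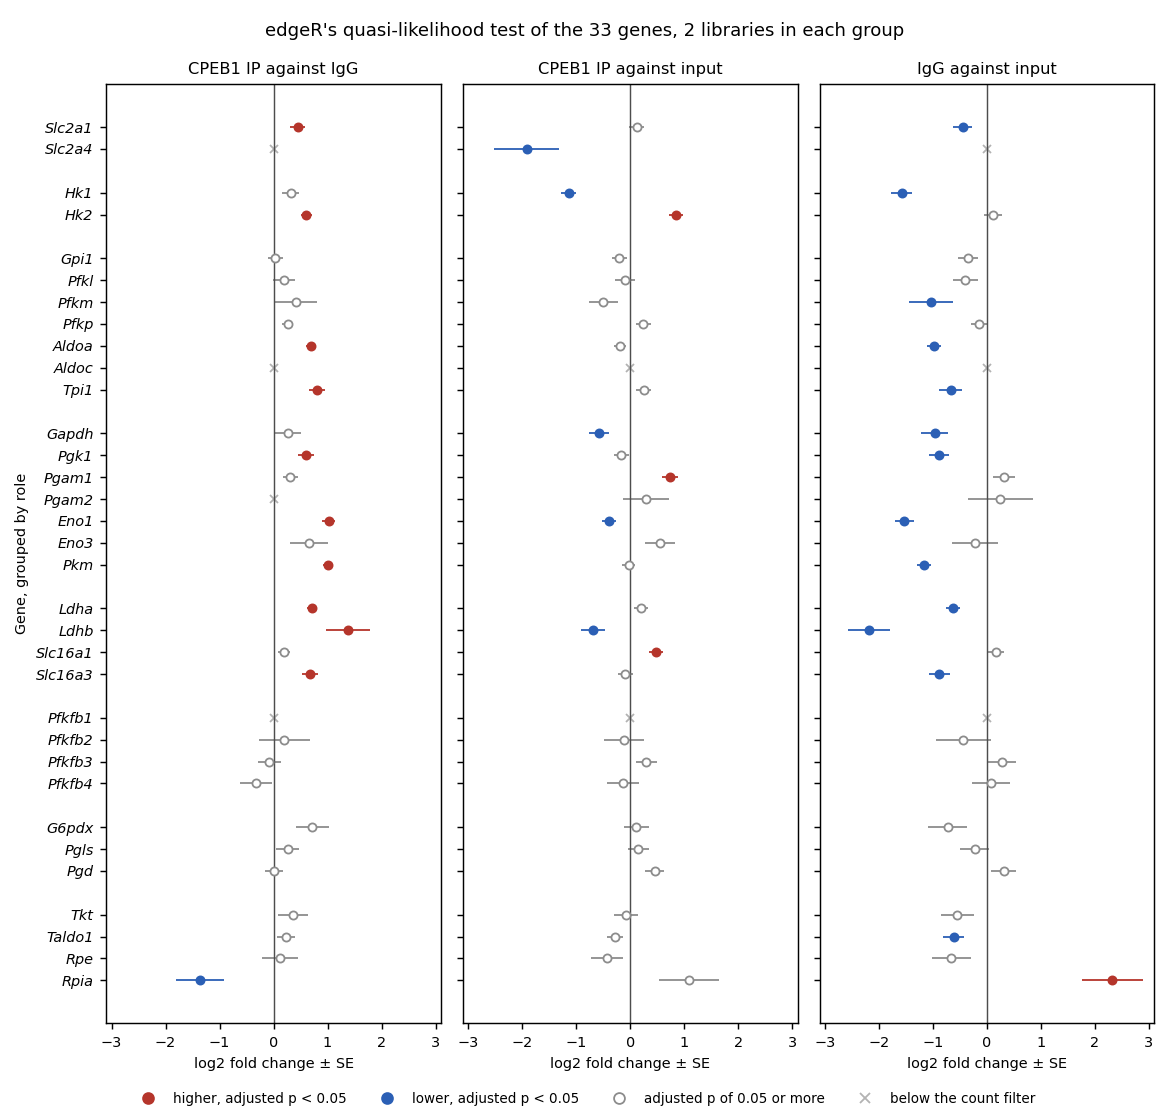
log2 fold change with its standard error for each member in CPEB1 IP against IgG, CPEB1 IP against input and IgG against input, from the quasi-likelihood test of edgeR on 2 libraries a group. Filled red points were higher and filled blue points lower at an adjusted p under 0.05, open points were not past it and crosses mark genes below the count filter, with 10 red points in the left panel and 13 blue points in the right one.

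Against input, which asks how the precipitate differs from the RNA of the whole cells, 3 of the 31 tested members were higher in CPEB1 IP (9.68%, beside 17.0% of the 12171 genes tested) and 5 were lower (16.1%, beside 15.8%). The higher ones were Hk2, Pgam1 and Slc16a1, and the lower ones Slc2a4, Hk1, Gapdh, Eno1 and Ldhb. Both shares lie near or below those of all genes. The median log2 fold change was -0.08 over the members and 0.00 over all genes tested. In IgG against input, which shows what the control precipitate holds, 1 of the 30 tested members was higher (3.33%, beside 21.4% of the 12980 genes tested) and 13 were lower (43.3%, beside 19.4%). The median log2 fold change was -0.50 over the members and 0.03 over all genes tested. Without either CPEB1 IP library, Hk1 was the member still lower than input in CPEB1 IP. The IgG calls of Slc2a1, Pfkm, Tpi1, Gapdh, Ldha and Taldo1 against input were lost without IgG replicate 1, which left 7. Each pair of these comparisons shares a group of libraries, so a low IgG level enters both the first and the third of them.

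CPEs were searched in the annotated 3′ UTRs of GENCODE M21 (mm10) as 9 motifs on the strand of the mRNA only. The canonical ones are TTTTAT and the longer TTTTAAT. The others are TTTTACT and the similar TTTTCAT, followed by the longer TTTTAAAT, TTTTAACT, TTTTAAGT, TTTTAATT and TTTTAAAGT. All were taken from the part of the study's motif list that was at hand. A match is a description of the sequence and not a binding site. At least 1 motif was present in 18 of the 33 members (54.5%), in 5 of the 10 members higher in CPEB1 IP than IgG, in 11 of the 19 tested members that were not (57.9%), and in 8095 of the 12071 tested genes matched by name (67.1%), or 74.4% of the 10886 that have an annotated 3′ UTR, as all members do. For the canonical motifs the shares were 42.4%, 40.0% and 52.6% in the members, and 60.3% of the tested genes or 66.9% of those with a 3′ UTR. Of the 10 higher members, Slc2a1, Hk2, Ldha and Slc16a3 held a canonical motif in the 3′ UTR of their main mRNA and Tpi1 held TTTTACT near its end, while none of the 9 motifs was in the 3′ UTRs of Aldoa, Pgk1, Eno1, Pkm and Ldhb. The 3′ UTRs of the members were short, with a median of 826 bases for the longest 3′ UTR of a gene against 1285 bases over the tested genes that have one. The canonical motif nearest to the 3′ end of the main mRNA is printed here for each of these 4 genes, for Pgam1 and Slc16a1, which like Hk2 were higher than input, and for Rpia, which was lower than IgG. Capitals mark the motif, and the flanks are up to 10 bases of 3′ UTR on each side.
Slc2a1, chr4:119136702-119136727, plus strand: tattttttttTTTTATcagccactct
Hk2, chr6:82725915-82725940, minus strand: cgactagcctTTTTATacgagttatt
Ldha, chr7:46855499-46855524, plus strand: gtacaggataTTTTATatattatatg
Slc16a3, chr11:120959914-120959939, plus strand: gggctggagcTTTTATaagggagatg
Pgam1, chr19:41917921-41917946, plus strand: cattgtagtaTTTTATcccctgcacc
Slc16a1, chr3:104657377-104657402, plus strand: atatggttcaTTTTATgttgattttc
Rpia, chr6:70766275-70766300, minus strand: tgattttatgTTTTATatgaaacctt
The motif of Ldha ends 113 bases before the end of the mRNA and starts 99 bases before the next poly(A) signal (AATAAA or else ATTAAA). In the other 6 genes the distance to the end was 565 to 1266 bases. Slc2a1 held 4 canonical motifs within a short stretch and TTTTCAT further on, and the 6 matches in Hk2 include TTTTAAT and TTTTAATT at the same place.

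**Figure D3:**
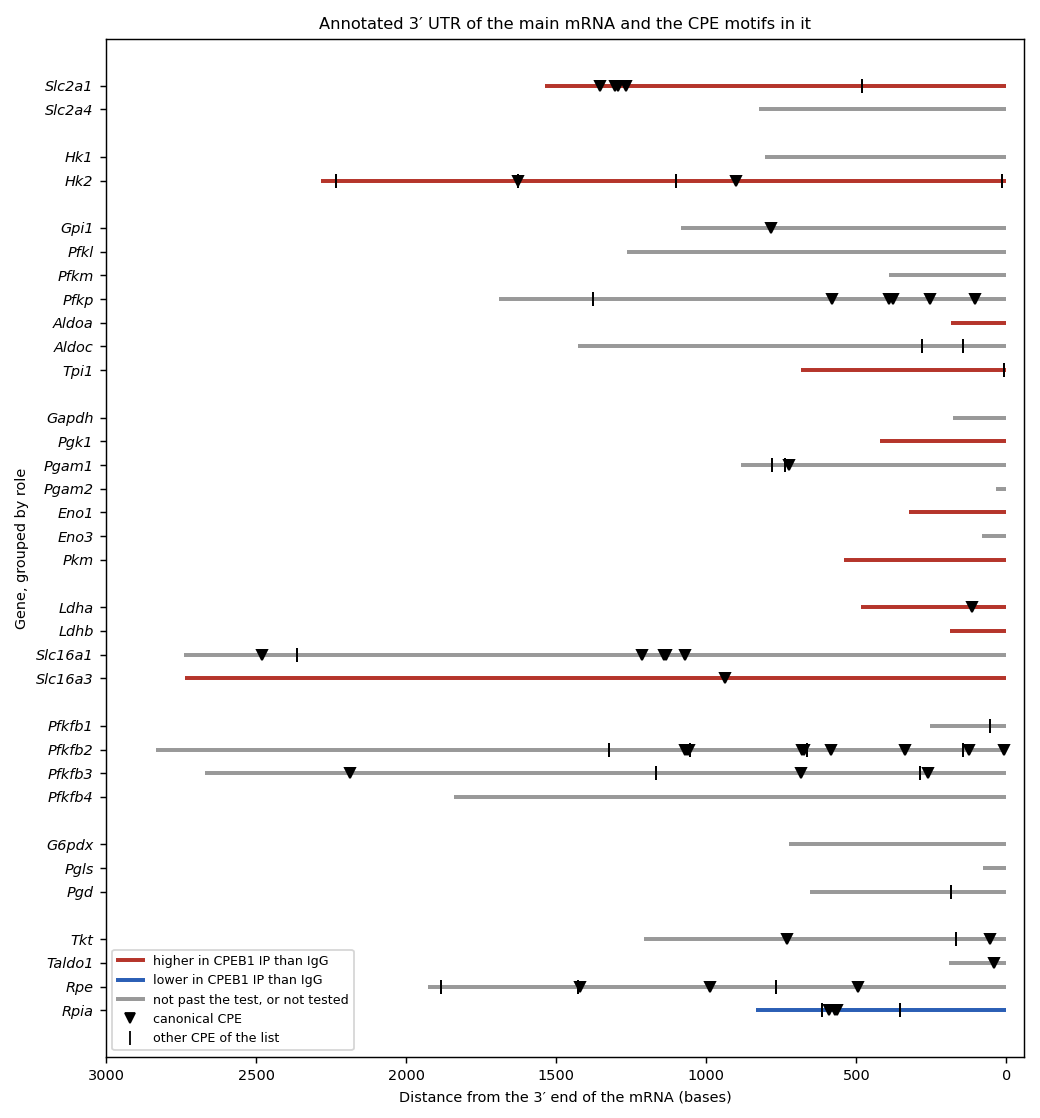
Annotated 3′ UTR of the main mRNA of each member, drawn as a line from its start to the 3′ end of the mRNA at 0 bases, with triangles for TTTTAT and TTTTAAT and ticks for the other 7 motifs. Red lines are members higher in CPEB1 IP than IgG, and 5 of these 10 (Aldoa, Pgk1, Eno1, Pkm and Ldhb) carry no motif.

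Glucose transport was represented by Slc2a1, the carrier of basal glucose uptake, and Slc2a4, the insulin-responsive carrier of muscle and fat. Slc2a1 (ENSMUSG00000028645.11, chromosome 4, 119108711 to 119137983 of mm10) had 140.3 and 126 CPM in input, 85.1 and 110.0 CPM in IgG, and 142 and 138 CPM in CPEB1 IP. Both CPEB1 IP libraries lay above both IgG libraries and within or just above the range of input. The log2 fold change over IgG was 0.45 (standard error 0.14, adjusted p = 0.0135), that over input was 0.12 (0.14, adjusted p = 0.534), and IgG against input gave -0.45 (0.18, adjusted p = 0.0479). DESeq2 did not call it over IgG (adjusted p = 0.103), nor did edgeR without either CPEB1 IP library or without IgG replicate 1, and over all alternatives the adjusted p ran from 1.93e-08 to 0.103. Slc2a4 had 11 and 14 counts in input, 0 and 9 in IgG, and 2 and 5 in CPEB1 IP. A count of 0 in IgG replicate 1 allows a level of up to 2.34 CPM, so that absence from this library was not detectable at its depth. The 9 counts in IgG replicate 2 were 6.56 CPM. Slc2a4 was lower in CPEB1 IP than input (log2 fold change -1.92, standard error 0.60, adjusted p = 0.0252), which missed the threshold with any 1 of these libraries left out (adjusted p up to 0.239). It reached the level of the count filter in both input libraries and in neither CPEB1 IP library, so it was tested only because input was high. Slc2a1 made up 94.3% or more of the FPKM of the 2 carriers in every library.

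The hexokinases Hk1 and Hk2, which phosphorylate glucose, moved apart. Hk2 (ENSMUSG00000000628.10, chromosome 6, 82725025 to 82774454), the inducible form of muscle, had 144 and 151 CPM in input, 162 and 157 CPM in IgG, and 254 and 253 CPM in CPEB1 IP. The 2 CPEB1 IP libraries were above all 4 others, while the IgG libraries were slightly above input. Its log2 fold change was 0.61 over IgG (standard error 0.11, adjusted p = 2.24e-04) and 0.84 over input (0.13, adjusted p = 3.97e-04), which share the CPEB1 IP libraries, and 0.11 for IgG over input (0.17, adjusted p = 0.615). Both CPEB1 IP calls were kept under all 11 alternatives. Hk1, the form of most tissues, had 168 and 166 CPM in input, 51.6 and 59.7 CPM in IgG, and 75.4 and 71.2 CPM in CPEB1 IP. Both precipitates were thus below input without overlap. Hk1 was lower than input in CPEB1 IP (log2 fold change -1.14, standard error 0.14, adjusted p = 7.96e-05) and in IgG (-1.58, 0.19, adjusted p = 2.10e-08), and over IgG its log2 fold change was 0.32 (0.16, adjusted p = 0.135). Shares of isozymes were not tested. They rest on FPKM, which divides by all annotated exon bases of a gene, 8532 for Hk1 and 5969 for Hk2. The main mRNAs have 3851 and 5513 bases, so the size of a share within a library depends on the length used. In counts, Hk1 had 546 and 526 in input and Hk2 had 468 and 478. Hk2 was 55.1% and 56.5% of the FPKM of both hexokinases in input, 81.7% and 78.9% in IgG, and 82.8% and 83.6% in CPEB1 IP. The shift in isozyme share from input was thus present in both precipitates, IgG included.

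**Figure D4:**
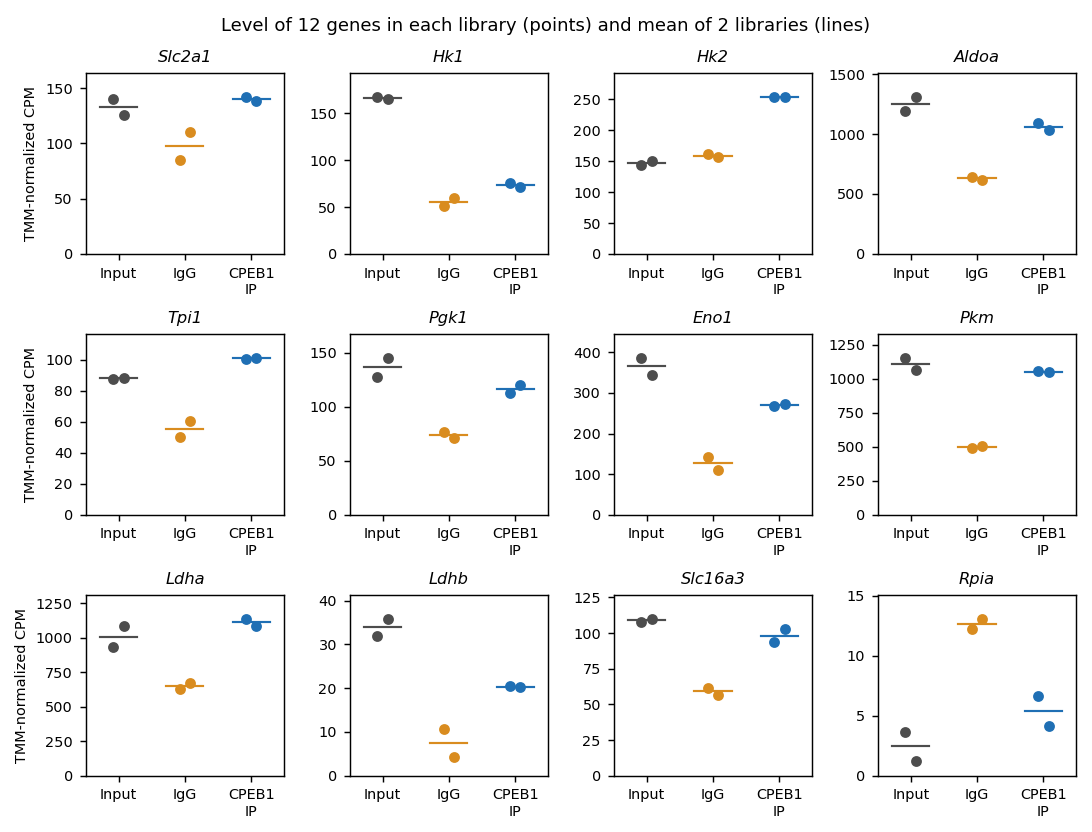
TMM-normalized CPM, on axes that start at 0, of the 11 members past the test in CPEB1 IP against IgG and of Hk1 in each input, IgG and CPEB1 IP library (points), with the mean of 2 libraries (lines). For the 10 higher members both CPEB1 IP points lie above both IgG points, and for Hk2, Tpi1 and Ldha they lie above both input points as well.

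Of the 7 members of upper glycolysis, from glucose 6-phosphate to the triose phosphates, 6 were tested and 2 were higher in CPEB1 IP than IgG. Aldoa (ENSMUSG00000030695.16, chromosome 7, 126795234 to 126809108 in the tables, where a second gene record of the same name is joined to it) had 1195 and 1311 CPM in input, 645 and 616 CPM in IgG, and 1093 and 1033 CPM in CPEB1 IP. The CPEB1 IP libraries lay below input and well above IgG. Its log2 fold change was 0.69 over IgG (standard error 0.09, adjusted p = 1.52e-05), -0.19 over input (0.12, adjusted p = 0.262), and -0.99 for IgG over input (0.13, adjusted p = 1.33e-07). Tpi1 (ENSMUSG00000023456.15, chromosome 6, 124810586 to 124814296), which interconverts the triose phosphates, had 87.5 and 88.5 CPM in input, 50.1 and 60.5 CPM in IgG, and 100.4 and 101 CPM in CPEB1 IP. Its levels in CPEB1 IP were above those of both other groups. Tpi1 had a log2 fold change of 0.80 over IgG (standard error 0.15, adjusted p = 4.83e-04), 0.25 over input (0.14, adjusted p = 0.198), and -0.67 for IgG over input (0.21, adjusted p = 0.00914). Both genes kept their call over IgG under all 11 alternatives.

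The phosphofructokinases did not pass the test over IgG in the full data. Pfkp, the form of platelets and proliferating cells, had 279 and 231 CPM in input, 223 and 243 CPM in IgG, and 279 and 304 CPM in CPEB1 IP, and its log2 fold change over IgG was 0.26 (standard error 0.10, adjusted p = 0.0542). Pfkp was past the threshold under 5 of 11 alternatives, among them RLE factors (adjusted p = 0.043), without IgG replicate 2 (0.0438) and without CPEB1 IP replicate 1 (0.0375), and DESeq2 gave an adjusted p of 0.209. Pfkl, the liver form, lay between 41.8 and 71.5 CPM in all 6 libraries. Pfkm, the muscle form, had 66 and 62 counts in input but 12 and 14 in IgG, where it was lower than input (log2 fold change -1.04, standard error 0.41, adjusted p = 0.0374). Pfkp made up 55.4% and 53.8% of the FPKM of the 3 genes in input and 65.0% and 60.6% in IgG, against 65.6% and 60.9% in CPEB1 IP. The length behind its FPKM is 13401 exon bases, beside 4145 in its main mRNA. Gpi1, the isomerase that follows hexokinase, had 122 and 117 CPM in input, 102 and 85.9 CPM in IgG, and 93.3 and 106 CPM in CPEB1 IP, with no call in any comparison. Aldoc, the brain form of aldolase, had at most 5 counts in any library and was not tested.

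Of the 7 members of lower glycolysis, which carry the triose phosphates on to pyruvate, 6 were tested over IgG and 3 were higher in CPEB1 IP. Pkm (ENSMUSG00000032294.17, chromosome 9, 59656368 to 59679375) had 1155 and 1065 CPM in input, 491 and 506 CPM in IgG, and 1056 and 1049 CPM in CPEB1 IP. The CPEB1 IP libraries were close to input, and both IgG libraries were far below. Pkm was higher than IgG by 1.01 on the log2 scale (standard error 0.09, adjusted p = 9.79e-08), and its log2 fold change was -0.03 over input (0.12, adjusted p = 0.887) and -1.16 for IgG over input (0.13, adjusted p = 8.72e-09). Eno1 (ENSMUSG00000063524.13, chromosome 4, 150236721 to 150248879), the enolase of most tissues, had 387 and 344 CPM in input, 143 and 111 CPM in IgG, and 267 and 272 CPM in CPEB1 IP. The 3 groups did not overlap and CPEB1 IP lay between the others. It was 1.02 higher than IgG on the log2 scale (standard error 0.12, adjusted p = 4.18e-06) and lower than input (log2 fold change -0.39, standard error 0.13, adjusted p = 0.0354), and IgG against input gave -1.53 (0.17, adjusted p = 1.56e-09). The call over IgG was kept under all 11 alternatives for Pkm and Eno1, and that of Eno1 against input was lost under 4, DESeq2 among them (adjusted p = 0.0513). Pgk1 (ENSMUSG00000062070.12, chromosome X, 106187100 to 106203699), phosphoglycerate kinase, had 127 and 146 CPM in input, 76.7 and 70.7 CPM in IgG, and 113 and 120.1 CPM in CPEB1 IP. CPEB1 IP was again between input and IgG, without overlap with either. Its log2 fold change was 0.60 over IgG (standard error 0.14, adjusted p = 0.0024), -0.17 over input (0.14, adjusted p = 0.365), and -0.89 for IgG over input (0.19, adjusted p = 1.99e-04). Without CPEB1 IP replicate 2 the adjusted p over IgG was 0.0543.

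Gapdh, glyceraldehyde 3-phosphate dehydrogenase, had 59.8 CPM in each input library, 26.6 and 34.2 CPM in IgG, and 45.0 and 33.6 CPM in CPEB1 IP. The CPEB1 IP and IgG values overlapped, and the log2 fold change over IgG was 0.27 (standard error 0.24, adjusted p = 0.413). Gapdh was lower than input in CPEB1 IP (log2 fold change -0.58, standard error 0.19, adjusted p = 0.0295) and in IgG (-0.97, 0.25, adjusted p = 0.00175). Its level of 10.3 and 11.1 FPKM in input is that of a gene ranked 3587. This FPKM divides by 4133 annotated exon bases, while the main mRNA has 1272 bases. Of the windows of 75 bases, 1 read long, in its main mRNA, 88.1% also occur in transcripts of other genes, 113 of the 120 such genes being pseudogenes, and reads that map to several places may not have been counted. Pgam1, phosphoglycerate mutase, had 64.8 and 68.0 CPM in input, 92.7 and 72.1 CPM in IgG, and 106 and 107 CPM in CPEB1 IP. It was higher than input in CPEB1 IP (log2 fold change 0.73, standard error 0.15, adjusted p = 0.00212), which without CPEB1 IP replicate 2 missed the threshold (adjusted p = 0.0573), and over IgG its log2 fold change was 0.31 (0.14, adjusted p = 0.108). The muscle isozymes were low: Eno3 had 12 to 109 counts and Pgam2 had 3 to 24 counts in a library. Eno3 was not called in any comparison. Pgam2 was below the count filter in CPEB1 IP against IgG and was not called against input in either precipitate. Eno1 made up 87.7% and 90.3% of the FPKM of Eno1 and Eno3 in input, 73.4% and 80.5% in IgG, and 82.2% and 79.6% in CPEB1 IP.

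Of the 4 lactate enzymes and carriers, 3 were higher in CPEB1 IP than IgG. Ldha (ENSMUSG00000063229.15, chromosome 7, 46841475 to 46855627) had 931 and 1084 CPM in input, 631 and 670.1 CPM in IgG, and 1139 and 1086 CPM in CPEB1 IP. Both CPEB1 IP libraries were above all others, though by little over the second input library. Ldha had a log2 fold change of 0.71 over IgG (standard error 0.09, adjusted p = 1.18e-05), 0.19 over input (0.13, adjusted p = 0.254), and -0.63 for IgG over input (0.13, adjusted p = 2.02e-04), and the call over IgG was kept under all 11 alternatives. Ldhb (ENSMUSG00000030246.11, chromosome 6, 142490249 to 142507957), the subunit that favours lactate use, had 31.9 and 35.9 CPM in input, 10.6 and 4.37 CPM in IgG, and 20.4 and 20.2 CPM in CPEB1 IP. The IgG values rest on 14 and 6 counts. Ldhb had the largest log2 fold change over IgG of the 29 members, 1.38 (standard error 0.40, adjusted p = 0.0109), and was lower than input (-0.69, 0.22, adjusted p = 0.0268), while IgG against input gave -2.18 (0.39, adjusted p = 2.37e-05). Over IgG the call was lost with DESeq2 (adjusted p = 0.0826) and without IgG replicate 2, and the log2 fold change lay between 0.91 and 2.19 with a library left out. Slc16a3 (ENSMUSG00000025161.16, chromosome 11, 120948480 to 120960868), the carrier that exports lactate from glycolytic cells, had 108 and 110.2 CPM in input, 61.5 and 56.8 CPM in IgG, and 93.7 and 103 CPM in CPEB1 IP. CPEB1 IP was above IgG and below input without overlap. Its log2 fold change was 0.67 over IgG (standard error 0.15, adjusted p = 0.00175), -0.09 over input (0.14, adjusted p = 0.651), and -0.88 for IgG over input (0.20, adjusted p = 4.40e-04), and the adjusted p over IgG was 0.0569 when CPEB1 IP replicate 2 was left out.

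Slc16a1, the carrier that moves lactate and pyruvate in many tissues, had 157 and 175 CPM in input, 169 and 202 CPM in IgG, and 213 and 231 CPM in CPEB1 IP. It was higher than input in CPEB1 IP (log2 fold change 0.47, standard error 0.13, adjusted p = 0.0163), a call lost without either CPEB1 IP library, and over IgG its log2 fold change was 0.20 (0.11, adjusted p = 0.193). Ldha made up 93.3% and 93.5% of the FPKM of the dehydrogenase genes in input, 96.6% and 98.6% in IgG, and 96.4% and 96.2% in CPEB1 IP. Slc16a1 made up 63.7% and 65.6% of the FPKM of the 2 carriers in input, 76.7% and 81.0% in IgG, and 73.2% and 72.9% in CPEB1 IP. In both families the precipitates, with either antibody, held a larger share of the leading gene than input did.

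**Figure D5:**
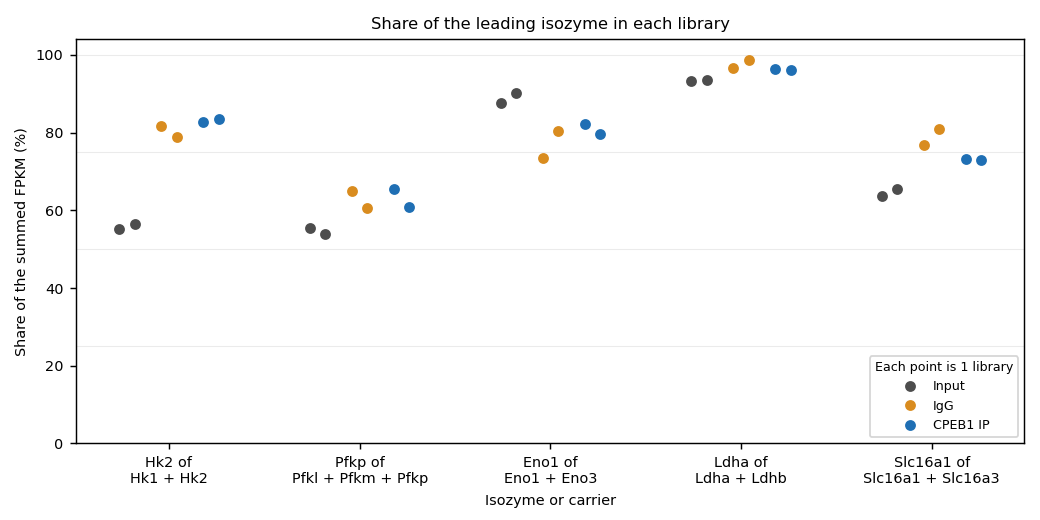
Share of 1 isozyme or carrier in the summed FPKM of its family, in percent, in each input, IgG and CPEB1 IP library. Hk2 makes up 55.1% and 56.5% in input and 78.9% or more in both precipitates, and the points of Pfkp, Ldha and Slc16a1 are also above input there, while those of Eno1 are below.

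The PFKFB enzymes set the level of fructose 2,6-bisphosphate, the main activator of phosphofructokinase. Pfkfb3 (ENSMUSG00000026773.19, chromosome 2, 11471433 to 11554077), the form with the strongest kinase activity, had 32.2 and 36.5 CPM in input, 47.9 and 35.0 CPM in IgG, and 38.7 and 42.5 CPM in CPEB1 IP. The 3 groups overlapped or nearly met. The log2 fold change was -0.08 over IgG (standard error 0.21, adjusted p = 0.809), 0.30 over input (0.19, adjusted p = 0.244) and 0.27 for IgG over input (0.26, adjusted p = 0.438). Pfkfb4 had 15.1 to 27.0 CPM and Pfkfb2 had 4.37 to 12.6 CPM in a library, and neither was called in any comparison. Pfkfb1, the liver and muscle form, had at most 10 counts and was not tested. Pfkfb2 and Pfkfb3 held 13 and 5 CPE matches in their main 3′ UTR, the first being the largest number of any member, beside no call over IgG.

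The oxidative branch of the pentose phosphate pathway makes NADPH in the steps of G6pdx, Pgls and Pgd. Pgls (ENSMUSG00000031807.10, chromosome 8, 71592176 to 71601092), 6-phosphogluconolactonase, had the highest mean FPKM of the 3 in input, and had 39.0 and 35.9 CPM in input, 31.1 and 32.8 CPM in IgG, and 34.6 and 44.4 CPM in CPEB1 IP. The log2 fold change was 0.26 over IgG (standard error 0.22, adjusted p = 0.391), 0.15 over input (0.20, adjusted p = 0.603) and -0.23 for IgG over input (0.27, adjusted p = 0.52). G6pdx, the dehydrogenase at the entry of the branch, had 23.9 and 24.2 CPM in input, 13.7 and 15.3 CPM in IgG, and 27.5 and 23.1 CPM in CPEB1 IP. Its IgG values were below all others without overlap, yet the log2 fold change of 0.72 over IgG (standard error 0.30, adjusted p = 0.074) missed the threshold, at 18 and 21 counts in IgG. Pgd, the second dehydrogenase, lay between 43.9 and 63.7 CPM and was not called in any comparison.

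The non-oxidative branch shuffles sugar phosphates between the pathways. Taldo1 (ENSMUSG00000025503.5, chromosome 7, 141392199 to 141402968), transaldolase, had 89.0 and 98.6 CPM in input, 54.7 and 67.0 CPM in IgG, and 69.2 and 79.3 CPM in CPEB1 IP. CPEB1 IP lay between the other groups. The log2 fold change was 0.23 over IgG (standard error 0.16, adjusted p = 0.301), -0.28 over input (0.15, adjusted p = 0.183), and -0.62 for IgG over input (0.20, adjusted p = 0.0131), which DESeq2 did not call (adjusted p = 0.0845). Tkt, transketolase, lay between 18.9 and 31.8 CPM and Rpe, the pentulose epimerase, between 13.1 and 31.2 CPM, with no call in any comparison. Rpia (ENSMUSG00000053604.5, chromosome 6, 70765720 to 70792232), ribose 5-phosphate isomerase, had 12 and 4 counts in input, 16 and 18 in IgG, and 16 and 20 in CPEB1 IP. In CPM this was 3.68 and 1.26 in input, 12.2 and 13.1 in IgG, and 6.67 and 4.13 in CPEB1 IP, so that IgG was highest and no groups overlapped. The log2 fold change was -1.36 over IgG (standard error 0.44, adjusted p = 0.0204), 1.09 over input (0.56, adjusted p = 0.155), and 2.32 for IgG over input (0.56, adjusted p = 0.00101). In IgG against input it was tested only because IgG was high, since neither input library reached the level of the count filter. The call over IgG was lost under 8 of 11 alternatives, with an adjusted p of 0.0157 to 0.314.

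The study's methods ask for a fold change of FPKM together with an adjusted p. The FPKM part alone was applied here, with 1 added to each FPKM as a choice made here: the value had to be more than 2 times as high with anti-CPEB1 as with IgG, separately in both experiments. Of the 33 members, 11 met it, the 10 higher members and G6pdx, and all were among the 29 tested, beside 14.4% of the 12124 genes tested. The largest ratios were those of Ldhb (2.54 in experiment 1 and 4.66 in experiment 2), Eno1 (2.85 and 3.87) and Pkm (3.41 and 3.52). The criterion moves with the library total: the median log2 ratio of all genes tested was 0.54 and 0.61, and that of the tested members was 0.96 and 1.02. With FPKM recomputed from TMM library sizes, Pkm was the member that still met it, at 2.14 and 2.06. Likewise, with the FPKM library total in place of the TMM library size, the count test gave a median log2 fold change of 0.80 over all genes and 1.13 over the members, and called 26 of 29 members higher, beside 59.0% of all genes tested.

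Some reads of several members also match other genes, which are near-identical copies or genes whose exons overlap the member at the same place. More than 10% of the windows of 75 bases in the main mRNA were shared with other genes in 10 members, among them Gapdh, Pgk1 (67.5%), Eno1 (65.4%), Pgam1 (40.6%), Pkm (19.6%) and Ldhb (16.7%), and no window was shared in 17, Hk2 and Slc16a3 among them. Slc2a1 (0.973%), Aldoa (1.53%), Tpi1 (2.48%) and Ldha (6.01%) shared few. The counts that the tables give to the genes that share windows with Pgk1 were 3 or fewer in every library, and those for Eno1 were 8 to 52. Those for Gapdh were 127 to 242, beside 35 to 195 counts of Gapdh itself. Pfkp shared 16.6% of its windows with Pitrm1, a gene whose exons overlap those of Pfkp and which had 181 to 892 counts. Pfkfb2 shared 24.3% with overlapping genes, Yod1 and Gm29427, that together held 95 to 556 counts. Exons of other genes overlap 15.3% of the exonic bases of Pkm and 20.6% of those of Pgls. Since the strand setting of the counting is not given in the sources used here, reads of such overlaps are uncertain.

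Other genes of these pathways, 41 in all, were listed by name. Of the 19 tested over IgG, 3 were higher (15.8%), close to the share of all genes, and none was lower (3 at an unadjusted p under 0.05, 0 by DESeq2). Prps1, which turns ribose 5-phosphate into the precursor of nucleotides, had 110.1 and 160.2 CPM in IgG and 216 and 247 CPM in CPEB1 IP (log2 fold change 0.71, standard error 0.14, adjusted p = 4.66e-04). Bsg, the chaperone that brings the SLC16A carriers to the membrane, had 220.3 and 236 CPM in IgG and 342 and 367 CPM in CPEB1 IP (0.57, 0.10, adjusted p = 2.34e-04). Ugp2, which makes UDP-glucose for glycogen, had 154 and 161 CPM in IgG and 233 and 193 CPM in CPEB1 IP (0.36, 0.12, adjusted p = 0.0246). All 3 genes were without overlap between CPEB1 IP and IgG. Against input, 3 of 22 were higher in CPEB1 IP (13.6%, beside 17.0% of all genes) and 8 lower (36.4%, beside 15.8%). In IgG 3 of 24 were higher than input (12.5%, beside 21.4%) and 8 lower (33.3%, beside 19.4%). DESeq2 called 2 higher and 5 lower in CPEB1 IP and 1 higher and 6 lower in IgG. For comparison, all 26 citrate cycle and pyruvate entry genes found of 27 listed were tested, and 17 were higher in CPEB1 IP than IgG (65.4%, beside 14.7% of all genes) with a median log2 fold change of 0.59. In the same list 21 genes were lower in IgG than input (80.8%, beside 19.4%), with a median of -1.04, and 12 were lower in CPEB1 IP than input (46.2%, beside 15.8%), with a median of -0.32. DESeq2 called 11, 18 and 7 genes in these comparisons. The difference between this list and the members was not tested.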

How the data were processed

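Reads were mapped by the authors to mm10 (HISAT) and assigned to genes (featureCounts), and the deposited counts are raw. The authors also deposited FPKM, made from the same counts with the summed exon length and a library total. The submitters' processing notes also name StringTie. Annotation release, strand setting and the treatment of reads with several places are not given in the sources used here, but all 33 members have the same ends and summed exon length in GENCODE M21. Libraries were made with SMART-Seq2 and read as pairs of 75 bases. Groups were taken from the sample labels.

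Counts were filtered with filterByExpr, normalized by TMM and tested for 2 groups at a time with edgeR 4.0.16 in R 4.3.3 (quasi-likelihood test, Benjamini-Hochberg adjustment at 0.05). Standard errors of log2 fold changes were obtained as |log2 fold change| / √F. DESeq2 1.42.0 was the other count test. CPM is TMM-normalized over all 6 libraries. Tables and plots were made in Python 3.11.15 (pandas 2.3.3, numpy 2.4.6, matplotlib 3.10.9). The main mRNA is the protein-coding transcript with the best APPRIS rank, then the longest 3′ UTR. All 33 members are named. Those called in CPEB1 IP against IgG and the highest of each role by input FPKM are given in full, as are other pathway genes called there with a mean FPKM of at least 1. The members, lists and tests were chosen with earlier results of these data known. The p-values and standard errors cover the spread of 2 libraries a group. The level that a count of 0 allows covers counting error only.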

Additional observations from a re-analysis of the deposited data

How the results depend on the processing

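The alternatives were DESeq2, RLE factors, counts on genes or the FPKM library total as library size, all 6 libraries in 1 fit, no filter on low counts, the replicate number as a block, and each library left out, where a lone library was assumed to vary like the other group. In CPEB1 IP against IgG the number of higher members, 10 in the full data (14.7% of all genes tested were higher), was 26 with the FPKM library total (59.0%), 17 without the filter (8.36%) and 7 to 11 with a library left out (8.54% to 13.1%). The 1 lower member was lost (0 members) with DESeq2, the FPKM total, no filter and all 6 libraries in 1 fit, and 0 to 1 members were lower with a library left out, 0 without IgG replicate 2 or either CPEB1 IP library. At an unadjusted p under 0.05 these 4 fits had 1, 0, 0 and 1 lower members. Without the filter all 33 members were tested and the median log2 fold change of all genes was -0.90. Against input the 3 higher members were 1 to 5 with a library left out, 1 without CPEB1 IP replicate 2 and 5 without either input library. The 5 lower members (15.8% of all genes) were 1 with DESeq2 (10.8%) and 1 to 6 with a library left out, 1 without either CPEB1 IP library. In IgG against input the 13 lower members (19.4% of all genes) were 27 with the FPKM total (55.3%) and 7 to 12 with a library left out (12.4% to 19.3%), lowest without IgG replicate 1 (12.8%). The FPKM ratio, whose pseudocount of 1 was chosen here, held for 11 members, 7 with a pseudocount of 5, 14 with 0.1, 1 with TMM library sizes, and 13 to 15 from 1 experiment alone. With the replicate number as a block, the calls were 10 higher and 1 lower in CPEB1 IP against IgG, 3 and 4 against input, and 1 and 13 in IgG against input. Deviations of same-numbered libraries from their group means correlated at -0.0107, -0.0206 and 0.0324 over 14276 genes, so the numbers were not shown to pair the libraries. With only TTTTAT and TTTTAAT, 14 members held a CPE. Among the log2 fold changes given for members, directions turned only for values not past the threshold in the full data. Pfkfb3 over IgG became 0.73 with the FPKM total and 0.32 without the filter, and lay between -0.24 and 0.22 with a library left out, above 0 without IgG replicate 1 (0.22) and CPEB1 IP replicate 1 (0.01). Against input in CPEB1 IP, Slc2a1 became -0.06, Ldha 0.00 and Pgls -0.04 with the FPKM total, Pkm 0.01 without Input replicate 1 and Pgls lay between -0.10 and 0.31 with a library left out, below 0 without CPEB1 IP replicate 2. In IgG against input, Hk2 became -0.77 with the FPKM total and -0.16 without the filter, and Pfkfb3 became -0.61 and 0.00. For members given by their levels alone, 12 recomputed values in 6 members changed sign in CPEB1 IP against IgG, 8 in 5 members against input and 16 in 8 members in IgG against input. Apart from the changes of scale and of the genes tested that these settings make by construction, the cause was not tested. The IgG libraries held 1284716 and 1359052 counts on genes, the fewest of the 3 groups.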
